A study of Mus musculus with 16 samples.

Results

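Solute carriers are membrane proteins that move amino acids, sugars, lactate, metal ions, nucleosides and many other small molecules into and out of cells and organelles. They do not spend ATP directly: some let a substrate run down its own gradient, some exchange it for another, and some couple it to sodium or proton gradients. In melanoma, as in other tumours, they supply glutamine, leucine and glucose for growth, export lactate, and import cystine for glutathione. The genes described here are those whose symbol begins with Slc and a number, apart from the melanosome genes Slc45a2 and Slc24a5 and the mitochondrial Slc25 family, and whose normalised counts average 50 or more over a table's libraries. This rule took 154 of the 15653 genes listed, with 131 in TDM culture, 134 in TDMa culture and 151 in TDMa tumours, and 129 in all 3. Of these symbols, 4 name proteins that are not carriers (the scaffolds Slc9a3r1 and Slc9a3r2, and Slc4a1ap and Slc7a6os), and they stay in the counts. Just outside and just inside the limit were Slc52a3 at 45.7 and Slc22a21 at 54.7 in TDM culture, Slc9a5 at 48.6 and Slc7a11 at 52.7 in TDMa culture, and, in tumours, the pseudogene Slc2a4rg-ps at 46.0 and Slc27a6 at 50.9.

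RNA was sequenced from B16F10 mouse melanoma cells of 2 derived lines, TDM and TDMa, that had been transduced with a scramble guide RNA (sgScramble) or with a guide to Nlrc5 (sgNlrc5), and the series title speaks of demethylating and activating that gene, a transactivator of MHC class I. Culture gave 2 libraries per guide and line, and tumours of TDMa cells gave 4 per guide. The labels do not spell out TDM or TDMa, do not say whether a line was 1 clone, give no age or strain of the mice, and do not state that replicates came from different dishes or animals, so a p-value here weighs a difference only against the spread between these libraries, which may be technical. Nlrc5 itself was at 22.9 and 12.7 normalised counts with sgScramble and 57.4 and 78.6 with sgNlrc5 in TDM culture, at 254 and 242 against 3146 and 3142 in TDMa culture, and at 257 to 837 against 3434 to 4381 in tumours. It was thus higher with sgNlrc5 in each setting, by log2 1.91 ± 0.34 (SE, limma adjusted p = 0.012), 3.66 ± 0.061 (adjusted p = 5.3e-18) and 2.88 ± 0.28 (adjusted p = 3.1e-05). Melanocyte genes marked every library, with 6 of 6 listed. Each library held between 12183889 and 16390886 recovered reads.

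The promoters of 4 members are shown because each has a textbook inducer: amino acid shortage for the cystine carrier gene Slc7a11, zinc for the exporter gene Slc30a1, and hypoxia for the glucose and lactate carrier genes Slc2a1 and Slc16a3. Each window runs from 250 bases before to 50 after a RefSeq start (GRCm38.p6), 5′ to 3′ on the gene's own strand. Capitals mark TGATGNAA, the core of an ATF4 composite site, in Slc7a11 (chr3:50443564-50443863, minus strand), TGCNCNC, the metal response core, in Slc30a1 (chr1:191906531-191906830, plus strand), and ACGTG, the hypoxia response core, in Slc2a1 (chr4:119108495-119108794, plus strand) and Slc16a3 (chr11:120948817-120949116, plus strand).
Slc7a11: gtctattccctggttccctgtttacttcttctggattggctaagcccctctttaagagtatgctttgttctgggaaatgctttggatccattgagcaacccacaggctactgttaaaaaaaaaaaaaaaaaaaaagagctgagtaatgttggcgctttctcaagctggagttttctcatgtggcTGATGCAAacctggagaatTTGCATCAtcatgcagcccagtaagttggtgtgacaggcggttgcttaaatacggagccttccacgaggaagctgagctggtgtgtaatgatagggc
Slc30a1: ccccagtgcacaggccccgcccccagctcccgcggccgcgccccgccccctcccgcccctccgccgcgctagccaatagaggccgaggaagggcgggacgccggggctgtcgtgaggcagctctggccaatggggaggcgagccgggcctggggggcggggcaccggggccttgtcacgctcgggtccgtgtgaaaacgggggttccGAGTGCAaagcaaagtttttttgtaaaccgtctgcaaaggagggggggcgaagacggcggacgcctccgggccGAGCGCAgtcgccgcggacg
Slc2a1: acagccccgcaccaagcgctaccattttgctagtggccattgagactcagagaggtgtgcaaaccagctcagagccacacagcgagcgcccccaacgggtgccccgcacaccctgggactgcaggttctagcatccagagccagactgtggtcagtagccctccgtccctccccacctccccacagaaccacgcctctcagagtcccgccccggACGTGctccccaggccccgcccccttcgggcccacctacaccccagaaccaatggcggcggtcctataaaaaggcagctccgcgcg
Slc16a3: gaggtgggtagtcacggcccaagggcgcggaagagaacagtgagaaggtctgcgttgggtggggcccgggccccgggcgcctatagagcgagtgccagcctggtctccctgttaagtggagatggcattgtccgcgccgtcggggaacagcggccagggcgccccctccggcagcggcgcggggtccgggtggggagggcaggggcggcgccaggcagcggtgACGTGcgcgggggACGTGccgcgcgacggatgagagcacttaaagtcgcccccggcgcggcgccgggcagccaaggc
Both strands were searched, and Slc7a11 held 2 matches, Slc30a1 2, Slc2a1 1 and Slc16a3 2. Windows were found for 116 of the 154 members, 157 windows in all. TGATGNAA was in 4.46% of them against 3.97% of all 32851 windows, ACGTG in 28.7% against 19.6%, TGCNCNC in 60.5% against 51%, and TGANNNNGC, the antioxidant response core, in 51.6% against 41.3%. All windows covered 27025 genes at any expression level, while members had to reach the limit, so the sets are unlike. Whether these gaps are particular to carriers was not tested. ACGTG also lies within the CACGTG element bound by other factors, and TGATGNAA and TGANNNNGC share their opening bases. A match is a run of letters and not a site shown to be bound.

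With 2 libraries per guide, nearly no carrier gene was called in cultured TDM cells, a share near that over all genes tested. A missing call does not show that a gene stayed unchanged. Only Slc9b1, a sodium-proton exchanger gene known from sperm, was called, which is 1 of 131 members against 0.517% of all genes tested (0.284% higher, 0.234% lower). Its normalised counts were 414 and 420 with sgScramble and 604 and 534 with sgNlrc5, with no overlap, a rise of log2 0.45 ± 0.092 (limma adjusted p = 0.037). The call ended without sgScramble replicate 1 (0.43, adjusted p = 0.059), without sgNlrc5 replicate 1 (0.36, adjusted p = 0.23), with the trend of spread on intensity dropped (adjusted p = 0.43) and under quantile scaling of the libraries (adjusted p = 0.11). At an unadjusted limma p under 0.05 there were 12 of the 131 members, beside 1084 of all genes tested (9.04%). Nearest to a call in the nutrient classes was the zinc importer gene Slc39a10, at 1023 and 975 with sgScramble and 778 and 852 with sgNlrc5 (log2 -0.29 ± 0.072, adjusted p = 0.10), and it was called without sgNlrc5 replicate 2 (-0.36, adjusted p = 0.037). The taurine carrier gene Slc6a6 was at -0.16 ± 0.048 (adjusted p = 0.22, and -0.23 with adjusted p = 0.0075 without sgNlrc5 replicate 2), the vesicular amino acid carrier gene Slc6a17 at -0.24 ± 0.076 (adjusted p = 0.29), and the zinc importer gene Slc39a6 at -0.15 ± 0.067 (adjusted p = 0.52). Of the glucose and nucleoside carriers, Slc2a1 was at -0.16 ± 0.064 (adjusted p = 0.48), Slc2a6 at -0.35 ± 0.20 (adjusted p = 0.65), Slc29a1 at 0.10 ± 0.070 (adjusted p = 0.73) and Slc29a3 at -0.16 ± 0.10 (adjusted p = 0.68).

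In cultured TDMa cells, where Nlrc5 rose most, carrier genes moved in both directions. Of 134 members 27 rose (20.1%) and 24 fell (17.9%), against 17.3% higher and 16.9% lower over all genes tested, so 38.1% were called against 34.2%, a share near the background. Among all genes with a mean of at least 50, the level that members had to reach, 37.4% were called. The median log2 difference was 0.01 in the members and 0.00 over all genes. Called changes past 2-fold were found in 2 of the 134 members, Slc2a4 and Slc7a11, and in 538 of the 12138 genes tested. In 5 members, among them Slc7a11, 1 guide's mean lay under 50, and without them 50 of 129 were called. Without the intensity trend 25 members were called, and calls over all genes tested fell from 4156 to 1581. Many of the smaller changes below thus rest on pooling the spread along the expression level.

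In the amino acid class 6 of 20 members rose, among them Slc7a5, Slc1a5 and Slc38a1, and 5 fell, among them Slc7a11 and Slc36a1. Slc7a5, the leucine-importing light chain of LAT1, was at 2720 and 2838 normalised counts with sgScramble and 3755 and 3800 with sgNlrc5, a rise of log2 0.44 ± 0.038 (limma adjusted p = 4.4e-08). Its heavy chain partner Slc3a2 was at 1966 and 1980 against 2229 and 2255, a smaller rise of 0.18 ± 0.043 (adjusted p = 0.0023). The glutamine carrier gene Slc1a5 was at 665 and 671 against 1051 and 1036 (0.64 ± 0.061, adjusted p = 1.7e-07). In each of these genes both sgNlrc5 libraries lay above both sgScramble libraries. Slc38a1, a sodium-coupled carrier of neutral amino acids, stood among the most abundant members and rose from 6999 and 7176 to 8997 and 9216 (0.36 ± 0.030, adjusted p = 2.9e-08). Slc7a1, the cationic carrier that brings in arginine, rose by 0.27 ± 0.042 (adjusted p = 5.7e-05), and the vesicular carrier Slc6a17 from 587 and 656 to 978 and 940 (0.63 ± 0.070, adjusted p = 1.2e-06). Slc38a2, a relative of Slc38a1 that responds to amino acid shortage, was not called, at 4402 and 4550 against 4490 and 4738 (0.04 ± 0.037, adjusted p = 0.40).

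The largest fall in this class was in Slc7a11, the cystine-importing subunit of system xc-, whose promoter is printed above. Its normalised counts were 71.8 and 70.4 with sgScramble and 40.5 and 28.1 with sgNlrc5, a change of log2 -1.05 ± 0.26 (adjusted p = 0.0041). With a mean of 34.3 with sgNlrc5, it reached the limit only through the sgScramble libraries in which it was high. It was not called without sgScramble replicate 1 (-1.04, adjusted p = 0.054) or when the trend of spread on intensity was dropped (adjusted p = 0.055). The lysosomal carrier gene Slc36a1 went from 509 and 410 to 336 and 298 (-0.53 ± 0.11, adjusted p = 8.7e-04), a call that ended without sgScramble replicate 1 (-0.37, adjusted p = 0.055). Slc1a4, a carrier of alanine, serine and cysteine, was at -0.33 ± 0.094 (adjusted p = 0.010), and the glycine carrier gene Slc6a9 at -0.53 ± 0.18 (adjusted p = 0.031). Both of the last calls were weak: Slc1a4 was not called without sgScramble replicate 1 (-0.32, adjusted p = 0.083), sgScramble replicate 2 (-0.34, adjusted p = 0.055) or sgNlrc5 replicate 1 (-0.25, adjusted p = 0.092), and Slc6a9 lost its call without any 1 of the 4 libraries (-0.47 to -0.59, adjusted p = 0.064 to 0.19).

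Of 7 glucose and lactate carriers 3 rose and 1 fell. Slc2a1, the widespread glucose importer GLUT1, was at 775 and 753 normalised counts with sgScramble and 1147 and 1130 with sgNlrc5 (log2 0.57 ± 0.059, adjusted p = 4.2e-07). Slc16a1, the lactate and pyruvate carrier MCT1, was at 1828 and 1849 against 2772 and 2639 (0.56 ± 0.043, adjusted p = 1.1e-08). Slc2a4, the insulin-responsive GLUT4 of muscle and fat, was low at 52.6 and 72.3 against 139 and 126 (1.09 ± 0.20, adjusted p = 3.4e-04). Slc2a6, a glucose transporter of lysosomes, went the other way, from 348 and 387 to 236 and 229 (-0.66 ± 0.11, adjusted p = 9.1e-05). Slc2a3, the high-affinity GLUT3, was at 126 and 132 against 121 and 158 and was not called (adjusted p = 0.69), and the lactate exporter gene Slc16a3 was under the limit in culture, at 14.4 and 17.1 against 4.50 and 8.72 (adjusted p = 0.076).

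**Figure D1:**
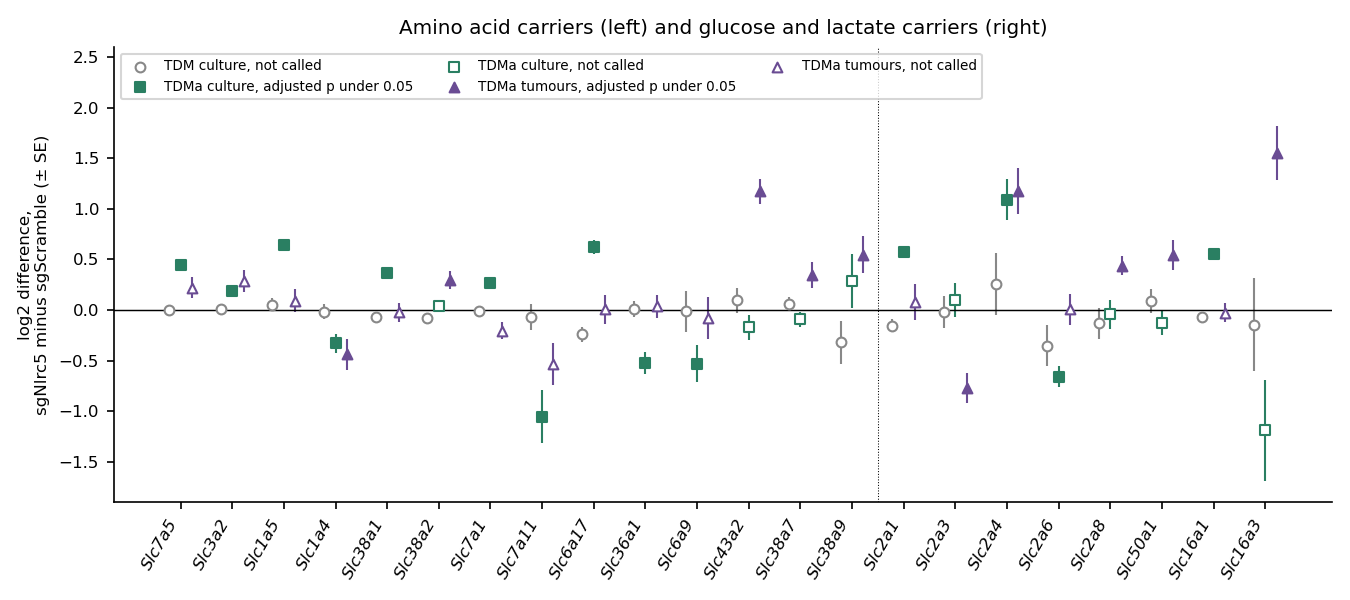
Log2 difference between guides (y axis, sgNlrc5 minus sgScramble, ± SE) for named amino acid carriers (left of the dotted line) and glucose and lactate carriers (right) in TDM culture, TDMa culture and TDMa tumours. Filled symbols passed an adjusted p of 0.05; Slc7a5, Slc1a5, Slc2a1 and Slc16a1 are filled in TDMa culture and open in the other settings, Slc16a3 and Slc43a2 are filled in tumours, and culture values of Slc16a3 and the TDM value of Slc2a4 come from means under 50.

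Zinc carriers are of opposed kinds, the Slc30 family, most of which moves zinc out of the cytosol, and the Slc39 family, which mostly brings it in. In TDMa culture the importers Slc39a10 and Slc39a14 rose and the plasma membrane exporter Slc30a1 fell. Slc39a10 was at 780 and 719 normalised counts with sgScramble and 1316 and 1391 with sgNlrc5 (log2 0.85 ± 0.061, adjusted p = 3.6e-09). Slc39a14, which also carries iron and manganese, was at 1324 and 1310 against 1734 and 1793 (0.42 ± 0.048, adjusted p = 1.8e-06). Slc30a1, whose transcription responds to zinc, was at 105.2 and 126 against 57.3 and 70.7 (-0.84 ± 0.20, adjusted p = 0.0032), and without sgScramble replicate 2 it was not called (-0.72, adjusted p = 0.068). The families did not divide as a whole, since 2 of 6 Slc30 members rose and 1 fell, and 2 of 8 Slc39 members rose and 1 fell. Slc30a5, which loads zinc into the secretory pathway, rose by 0.28 ± 0.054 (adjusted p = 4.5e-04), and Slc30a9 by 0.37 ± 0.061 (adjusted p = 1.1e-04). Slc39a11 was lower by -0.36 ± 0.10 (adjusted p = 0.011, and 0.097 without sgScramble replicate 2).

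Both nucleoside carriers above the limit in TDMa culture fell. Slc29a3, the equilibrative carrier of lysosomes, was at 349 and 342 normalised counts with sgScramble and 253 and 255 with sgNlrc5 (log2 -0.44 ± 0.10, adjusted p = 0.0024). Slc29a1, the plasma membrane carrier ENT1, was at 984 and 1000 against 812 and 932 (-0.19 ± 0.067, adjusted p = 0.036). The Slc29a1 call was weak: the value was -0.09 without sgNlrc5 replicate 1 (adjusted p = 0.38), -0.29 without sgNlrc5 replicate 2 (adjusted p = 0.0066), and not called without sgScramble replicate 1 (adjusted p = 0.13) or 2 (adjusted p = 0.16).

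Outside these 4 classes the creatine carrier gene Slc6a8 rose from 788 and 818 to 1303 and 1399 normalised counts (log2 0.75 ± 0.059, adjusted p = 1.2e-08). The fatty acid uptake genes Slc27a1 and Slc27a6 rose by 0.66 ± 0.083 (adjusted p = 5.1e-06) and 0.67 ± 0.083 (adjusted p = 4.1e-06). The bicarbonate carrier gene Slc4a4, above the limit in TDMa culture only, rose from 291 and 287 to 440 and 427 (0.58 ± 0.094, adjusted p = 8.4e-05). Slc37a4, which brings glucose-6-phosphate into the endoplasmic reticulum, rose by 0.52 ± 0.13 (adjusted p = 0.0036), and Slc16a6 by 0.69 ± 0.18 (adjusted p = 0.0067, but 0.065 without sgScramble replicate 1 and 0.0503 without sgNlrc5 replicate 1). Slc31a2, a copper transporter of endosomes, fell from 237 and 251 to 129 and 121 (-0.96 ± 0.14, adjusted p = 2.3e-05). The sodium-potassium-chloride importer gene Slc12a2 fell from 421 and 317 to 223 and 215 (-0.74 ± 0.13, adjusted p = 1.5e-04), and Slc16a13 from 206 and 202 to 124 and 121 (-0.73 ± 0.14, adjusted p = 5.5e-04). The urate carrier gene Slc2a9 was at -0.75 ± 0.22 (adjusted p = 0.011), a call lost without sgScramble replicate 1 (adjusted p = 0.096) or 2 (adjusted p = 0.061) or sgNlrc5 replicate 1 (-0.58, adjusted p = 0.082).

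Genes that act beside these carriers were read from lists of the same pathways. The counts stand beside 17.3% higher and 16.9% lower over all genes tested in TDMa culture. Of 20 HIF pathway and glycolysis genes tested in TDMa culture, 17 were higher and 2 lower. Pgk1, a glycolytic kinase, was at 0.73 ± 0.028 (adjusted p = 5.2e-13), Pdk1, which limits pyruvate entry into mitochondria, at 1.47 ± 0.062 (adjusted p = 2.1e-12), and Aldoa, aldolase, at 0.61 ± 0.026 (adjusted p = 3.2e-12). All 8 sterol genes tested were higher, among them Insig1 (1.06) and Srebf2 (0.53). Among 17 amino acid response and serine synthesis genes 2 were higher and 6 lower, with Aldh1l2, of mitochondrial folate metabolism, at -0.92, Shmt2 at -0.26 and Atf5 at -0.60. The NRF2 list had 2 higher and 3 lower of 12, with Srxn1 at -0.32 and Osgin1 at -0.38, and the nucleoside salvage list 4 higher and 3 lower of 10, with Tk1 at -0.33 and Uck2 at 0.26. Of the zinc list only Mtf1 and Mt1 were tested, and neither was called in any table.

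The difference between the lines was tested in 1 fit over both culture tables, with libraries weighted by their spread. Of 129 members above the limit in both, 35 differed (27.1%, against 22.7% of all genes), 23 higher in TDMa (background 12%) and 12 lower (background 10.7%). Slc39a10 differed most, at log2 1.15 ± 0.096 (adjusted p = 8.1e-10), with the TDM and TDMa values at -0.29 and 0.85. Slc6a17 (0.87 ± 0.11, adjusted p = 5.4e-07), Slc6a8 (0.79 ± 0.099, adjusted p = 7.8e-07), Slc2a1 (0.73 ± 0.087, adjusted p = 3.6e-07), Slc16a1 (0.62 ± 0.064, adjusted p = 3.4e-08), Slc1a5 (0.59 ± 0.088, adjusted p = 1.3e-05) and Slc7a5 (0.44 ± 0.059, adjusted p = 2.3e-06) also rose more in TDMa. Slc31a2 differed by -0.92 ± 0.20 (adjusted p = 9.3e-04), Slc30a1 by -1.01 ± 0.27 (adjusted p = 0.0076) and Slc7a11 by -0.99 ± 0.27 (adjusted p = 0.0092). The Slc30a1 difference was not called without TDMa sgScramble replicate 2 (-0.89, adjusted p = 0.051), nor that of Slc7a11 without the replicate 2 libraries of TDM sgScramble (-0.85, adjusted p = 0.060) or TDMa sgNlrc5 (-0.73, adjusted p = 0.055), each left out alone.

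In tumours the called carrier genes were mostly higher with sgNlrc5. Of 151 members 75 were higher (49.7%) and 10 lower (6.62%), against 19.7% higher and 19.7% lower over all genes tested, so 56.3% were called against 39.4%. At a mean of at least 50 the shares over all genes were 19.1% higher and 23.1% lower. The median log2 difference was 0.34 in the members and -0.01 over all genes. Called changes past 2-fold were found in 18 members higher and 2 lower, and in 1343 of the 13385 genes tested. In 11 of the 85 called members the guides' libraries overlapped, a share that was not counted over all genes. Leaving out the 6 members with 1 guide's mean under 50, 73 of 145 were higher and 9 lower. Members together took 0.835% to 0.900% of the counts in the sgScramble tumours and 1.01% to 1.14% in the sgNlrc5 tumours, with no overlap. The share was 0.752% to 0.797% in the culture libraries, but over fewer members, 131 in TDM and 134 in TDMa culture against 151 in tumours.

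These are whole tumours, in which fewer cells of a type and less RNA per cell cannot be told apart, and markers of immune cells moved with the guide. All 8 macrophage markers were higher with sgNlrc5, and their summed normalised counts were 3019 to 4531 in sgScramble and 11490 to 14689 in sgNlrc5 tumours. All 7 T cell markers were higher, with sums of 46.8 to 66.6 and 257 to 1018. The melanocyte sum was 561949 to 632641 against 596532 to 947665, highest in sgNlrc5 replicate 2, with Tyrp1 and Mlana called higher. The 1 neutrophil and the 1 dendritic cell marker tested were higher, 2 of 5 fibroblast markers were higher and 1 lower, none of the 3 endothelial markers tested passed (limma; their sums were 32.2 to 196 and 56.2 to 171), and 1 of 5 erythroid markers was lower. In TDMa culture no T cell marker and, of the macrophage markers, only Cd68 was listed. Cd68 was called higher with sgNlrc5 there too (log2 0.52), at 700 to 760 normalised counts against 1023 to 1069. Of the 75 higher members 66 were also above the limit in TDMa culture, which does not show which cells their higher counts in tumours came from. The part of the immune cells in the tumour results was not tested.

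**Figure D2:**
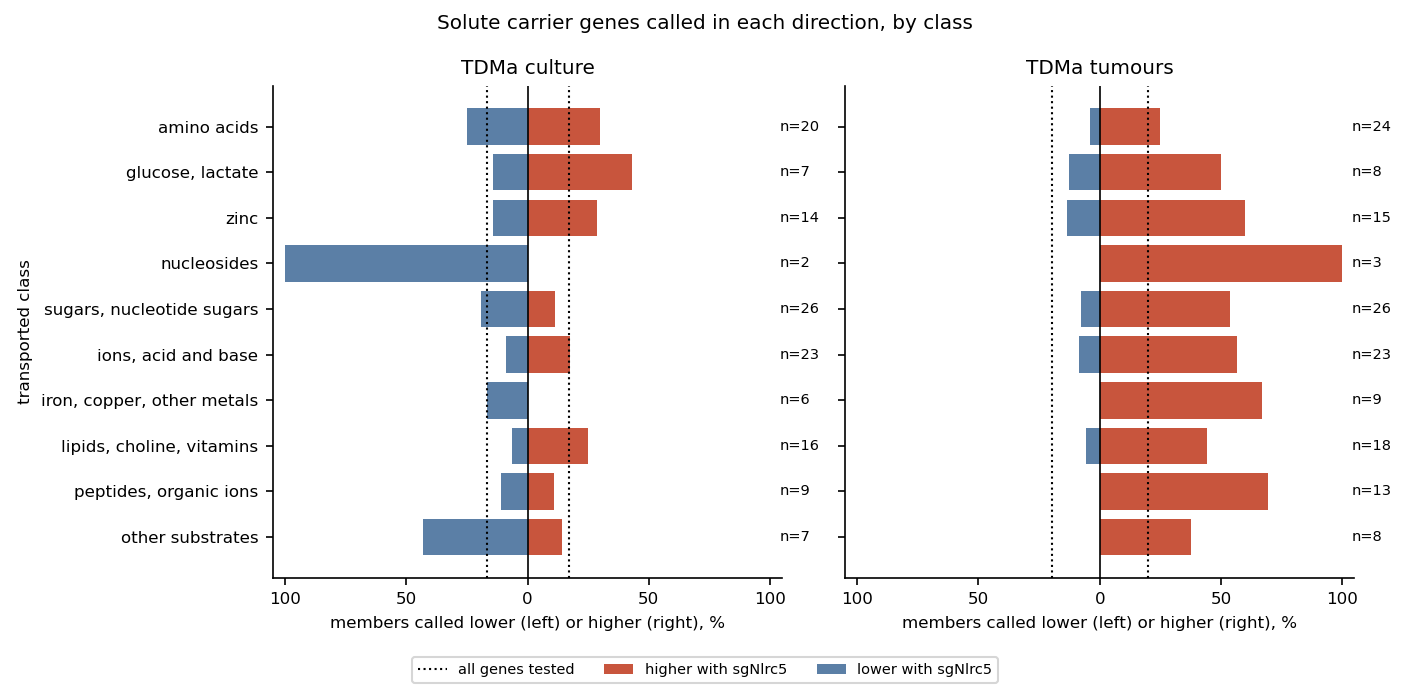
Share of members called higher (right, red) or lower (left, blue) with sgNlrc5 in each transported class (y axis; x axis in percent), in TDMa culture and TDMa tumours, with n members in each row and dotted lines at the shares over all genes tested. Higher calls outnumber lower ones in each class drawn for the tumours; in culture 6 of 20 amino acid carriers are higher and 5 lower. The 4 symbols that name no carrier are not drawn.

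Among 9 members called higher that did not reach the limit in TDMa culture were the 7 largest rises in tumours, though Slc28a2 and Slc7a2 reached the limit only through the sgNlrc5 tumours in which they were high. Slc11a1, the NRAMP1 metal carrier of macrophage phagosomes, was at 88.5, 107, 104.4 and 156 normalised counts with sgScramble and 573, 424, 510 and 471 with sgNlrc5 (log2 2.13 ± 0.17, adjusted p = 1.3e-05). Slc15a3, a peptide and histidine carrier of lysosomes in immune cells, was at 75.8, 69.7, 93.4 and 165 against 342, 294, 377 and 361 (1.84 ± 0.23, adjusted p = 1.4e-04). Both were not listed in either culture table, and their guides' libraries did not overlap. Slc47a1, an exporter of organic cations, was at 104.6, 58.2, 101.4 and 34.4 against 242, 208, 548 and 519 (2.33 ± 0.39, adjusted p = 8.0e-04), with sgNlrc5 replicates 3 and 4 well above 1 and 2. Slc39a2, a zinc importer, was at 96.5, 50.6, 67.6 and 66.2 against 176, 230, 278 and 255 (1.74 ± 0.21, adjusted p = 1.0e-04). Slc28a2, the concentrative carrier of purine nucleosides, was at 25.3, 11.5, 33.8 and 56.5 against 129, 89.0, 104.9 and 163 (2.07 ± 0.39, adjusted p = 0.0016). Their macrophage and T cell context is given above, and a source in these cells was not tested.

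**Figure D3:**
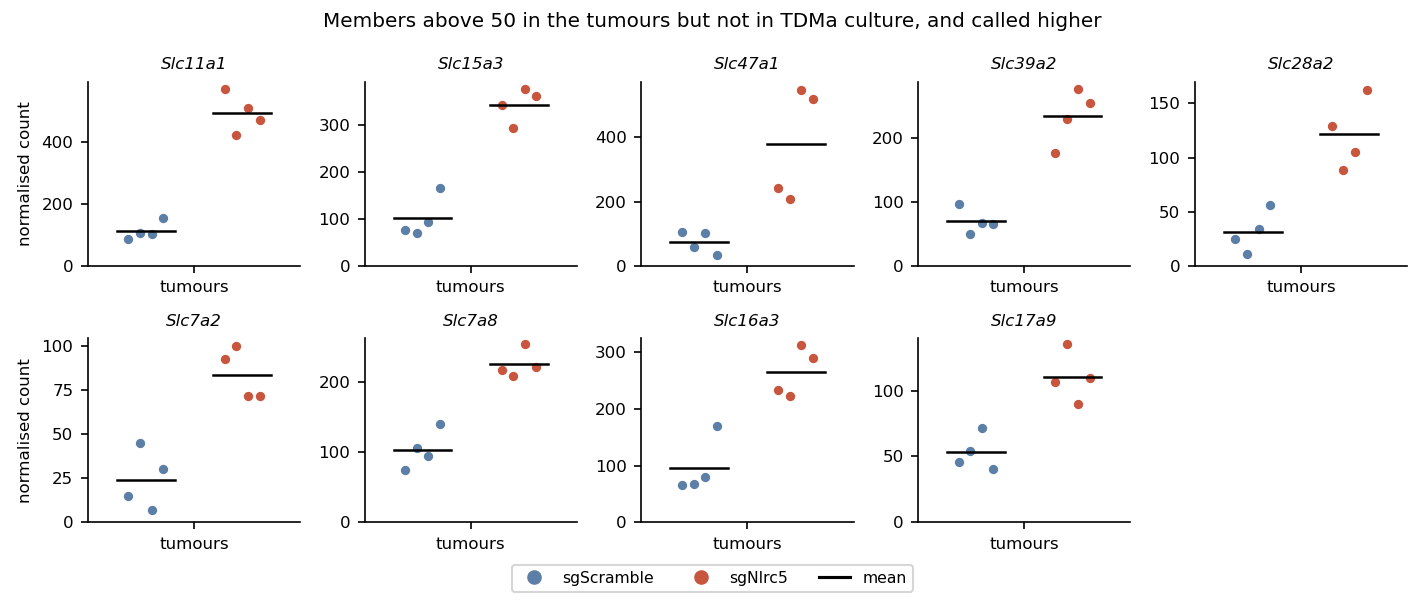
Normalised counts (y axis, from 0) in each tumour library for the 9 members that were called higher in tumours and lay under the limit of 50 in TDMa culture; points are libraries and bars are means. In each panel the 4 sgNlrc5 points lie above the 4 sgScramble points.

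Amino acid carriers moved least of the larger classes in tumours, with 6 of 24 higher and 1 lower. Slc43a2, a facilitative carrier of branched-chain and aromatic amino acids, was at 315, 214, 300 and 283 normalised counts with sgScramble and 658, 615, 628 and 592 with sgNlrc5 (log2 1.18 ± 0.12, adjusted p = 4.6e-05). Slc7a2, the inducible arginine carrier CAT2, was at 14.9, 44.9, 6.96 and 29.99 against 92.3, 99.7, 71.4 and 71.3 (2.02 ± 0.45, adjusted p = 0.0041), and Slc7a8, the LAT2 light chain, at 74.7, 106, 94.4 and 140 against 218, 209, 254 and 221 (1.14 ± 0.18, adjusted p = 5.8e-04). In all of these the sgNlrc5 tumours stood clear of the others. Slc38a2 rose from a mean of 3271 to 4019 (0.30 ± 0.085, adjusted p = 0.016). The lysosomal carriers Slc38a9, the arginine sensor of mTORC1, and Slc38a7, a glutamine exporter, were at 0.55 ± 0.19 (adjusted p = 0.034) and 0.35 ± 0.13 (adjusted p = 0.048), with overlapping libraries.

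The 6 amino acid carriers that had risen in TDMa culture were not called in tumours with all libraries in. Slc7a5 was at 6541, 6743, 6264 and 5909 normalised counts against 7739, 8698, 6465 and 6934 (log2 0.22 ± 0.10, adjusted p = 0.11, and 0.29 with adjusted p = 0.044 without sgNlrc5 replicate 3), Slc1a5 at 0.09 ± 0.12 (adjusted p = 0.56), Slc38a1 at -0.02 ± 0.097 (adjusted p = 0.87) and Slc6a17 at 0.01 ± 0.15 (adjusted p = 0.98). Slc3a2, at 5330, 5183, 5123 and 5569 against 6854, 7864, 5678 and 5710, did not overlap but missed the threshold (0.29 ± 0.11, adjusted p = 0.055), and passed it without sgNlrc5 replicate 3 (0.35, adjusted p = 0.027) or 4 (0.35, adjusted p = 0.040). Slc7a1 was at -0.20 ± 0.082 (adjusted p = 0.067), and was called lower without sgNlrc5 replicate 2 (-0.25, adjusted p = 0.041), under quantile scaling (-0.23, adjusted p = 0.034) and with equal library sums (-0.23, adjusted p = 0.042). Slc7a11 was at 178, 193, 116 and 190 against 158, 118, 91.3 and 100 (-0.53 ± 0.21, adjusted p = 0.061), and was called without sgScramble replicate 3 (-0.70, adjusted p = 0.018) or sgNlrc5 replicate 1 (-0.69, adjusted p = 0.019), and under quantile scaling (-0.63, adjusted p = 0.028) or equal library sums (-0.56, adjusted p = 0.048). Slc1a4 was the 1 lower call of the class, at 447, 581, 396 and 506 against 396, 436, 285 and 312 (-0.44 ± 0.16, adjusted p = 0.042). Calls of Slc1a4, Slc38a7 and Slc38a9 lay near the threshold and ended when any of several tumours was left out alone, with the direction kept. Slc1a4 was not called without sgScramble replicate 1, 2 or 4 or sgNlrc5 replicate 3 or 4 (-0.34 to -0.47, adjusted p = 0.060 to 0.12), Slc38a7 without sgScramble or sgNlrc5 replicate 1, 2 or 4 (0.25 to 0.38, adjusted p = 0.059 to 0.14), and Slc38a9 without sgScramble replicate 1, 2 or 3 or sgNlrc5 replicate 1 or 2 (0.40 to 0.58, adjusted p = 0.054 to 0.099).

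Glucose and lactate carriers changed in kind rather than together, with 4 of 8 higher and 1 lower. Slc16a3, the lactate exporter MCT4, was at 66.6, 67.8, 79.5 and 170 normalised counts with sgScramble and 234, 223, 312 and 288 with sgNlrc5 (log2 1.55 ± 0.26, adjusted p = 9.4e-04). Slc2a4 was at 55.2, 90.7, 90.5 and 82.0 against 150, 273, 145 and 170 (1.18 ± 0.23, adjusted p = 0.0019). Slc2a3 fell, from 301, 272, 377 and 363 to 149, 213, 194 and 210 (-0.77 ± 0.15, adjusted p = 0.0019). Guides did not overlap in these 3 genes. The intracellular glucose transporter gene Slc2a8 rose by 0.44 ± 0.095 (adjusted p = 0.0037), and Slc50a1, a sugar transporter of the SWEET family, by 0.54 ± 0.15 (adjusted p = 0.012). Slc2a1 was high in both groups, at 5107, 5872, 6020 and 6614 against 3955, 7010, 7388 and 7284 (0.08 ± 0.18, adjusted p = 0.75). Its sgNlrc5 replicate 1 lay apart from the other 3, and without it Slc2a1 was called higher (0.30, adjusted p = 0.037). Slc16a1 was at -0.03 ± 0.094 (adjusted p = 0.84) and Slc2a6 at 0.01 ± 0.15 (adjusted p = 0.98).

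Zinc carriers were mostly called, with 9 of 15 higher and 2 lower, and the importers that had risen in culture were the 2 that fell. Slc39a14 was at 2526, 2903, 2874 and 2913 normalised counts with sgScramble and 1366, 1721, 1752 and 1734 with sgNlrc5 (log2 -0.78 ± 0.097, adjusted p = 1.4e-04). Slc39a10 was at 2325, 1650, 1885 and 1302 against 993, 1346, 967 and 1049 (-0.70 ± 0.16, adjusted p = 0.0053), where sgScramble replicate 4 lay below sgNlrc5 replicate 2. The exporter gene Slc30a1 was at 209, 243, 231 and 331 against 420, 420, 378 and 393 (0.69 ± 0.14, adjusted p = 0.0023). Higher too were the secretory pathway carriers Slc30a5 (0.41 ± 0.12, adjusted p = 0.015), Slc30a6 (0.43 ± 0.12, adjusted p = 0.013) and Slc30a7 (0.55 ± 0.13, adjusted p = 0.0050). In all, 4 of 6 Slc30 members were higher and the other two were not called. Of the importers Slc39a1 (0.47 ± 0.095, adjusted p = 0.0025), Slc39a3 (0.52 ± 0.11, adjusted p = 0.0042) and Slc39a13, of intracellular vesicles (0.64 ± 0.11, adjusted p = 0.0012), were higher. Slc39a11 (-0.05 ± 0.13, adjusted p = 0.79), Slc39a6 (0.06 ± 0.11, adjusted p = 0.73) and Slc30a9 (0.08 ± 0.084, adjusted p = 0.50) were not called.

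**Figure D4:**
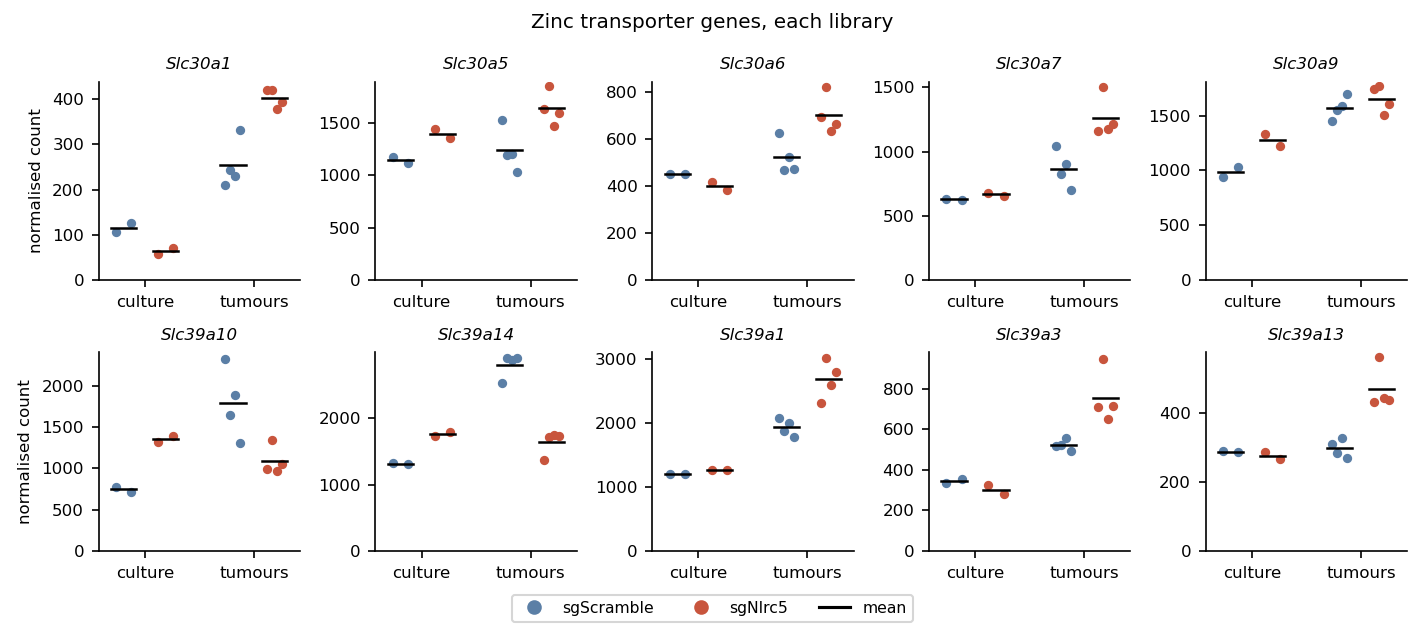
Normalised counts (y axis, from 0) of 10 zinc carrier genes in each library of TDMa culture (left in each panel) and TDMa tumours (right); points are libraries, bars are means, and levels of culture and tumours were normalised apart. Slc30a1 is lower with sgNlrc5 in culture and higher in tumours, and Slc39a10 and Slc39a14 show the opposite order.

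Both nucleoside carriers that were above the limit with either guide, Slc29a3 and Slc29a1, were higher in tumours. Slc28a2, given above, reached the limit only through the sgNlrc5 tumours. Slc29a3 was at 279, 306, 311 and 262 normalised counts with sgScramble and 405, 381, 380 and 369 with sgNlrc5 (log2 0.41 ± 0.099, adjusted p = 0.0071). Slc29a1 was at 869, 692, 778 and 731 against 914, 933, 1002 and 845 (0.27 ± 0.094, adjusted p = 0.039), with overlap, and its call ended without sgScramble replicate 2, 3 or 4 or sgNlrc5 replicate 1, 2 or 3 (0.22 to 0.28, adjusted p = 0.059 to 0.12). The nucleobase carrier gene Slc43a3 stayed under the limit, at 2.30, 15.3, 14.9 and 14.1 against 38.1, 31.1, 25.3 and 38.2 (1.66 ± 0.49, adjusted p = 0.018).

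Metal, ion and organic ion carriers also leaned upward in tumours. The metal class had 6 of 9 higher, the peptide and organic ion class 9 of 13, the ion and acid-base class 13 of 23 with 2 lower, the sugar and nucleotide sugar class 14 of 26 with 2 lower, and the lipid, choline and vitamin class 8 of 18 with 1 lower. Slc48a1, which moves haem out of lysosomes, was at 1796, 1826, 1835 and 1698 normalised counts with sgScramble and 3646, 4599, 3587 and 3925 with sgNlrc5 (log2 1.13 ± 0.090, adjusted p = 1.3e-05). Slc12a7, a potassium-chloride exporter, was at 2644, 2613, 2847 and 2508 against 5284, 6586, 4697 and 5715 (1.06 ± 0.10, adjusted p = 3.4e-05). Both are well expressed in TDMa culture too, where Slc12a7 rose by 0.26 ± 0.046 (adjusted p = 2.1e-04) and Slc48a1 was at 0.03 ± 0.043 (adjusted p = 0.58). The calcium exchanger gene Slc24a4 rose by 1.06 ± 0.21 in tumours (adjusted p = 0.0023) and 0.48 ± 0.14 in culture (adjusted p = 0.014), a culture call that ended without sgScramble replicate 1 (0.34, adjusted p = 0.17) or either sgNlrc5 library (adjusted p = 0.070 and 0.052). Slc22a18 (1.29 ± 0.16, adjusted p = 1.3e-04), Slc10a3, an orphan of the bile acid carrier family (1.04 ± 0.11, adjusted p = 4.8e-05), the vesicular nucleotide carrier gene Slc17a9 (1.05 ± 0.21, adjusted p = 0.0023) and Slc27a1 (0.76 ± 0.15, adjusted p = 0.0019) were also higher.

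The largest fall was in Slc35f1, an orphan of the nucleotide sugar family, from 902, 785, 724 and 772 normalised counts to 124, 130, 273 and 235 (log2 -2.14 ± 0.23, adjusted p = 5.1e-05). It was also lower in TDMa culture, at 1421 and 1445 against 1141 and 1150 (-0.32 ± 0.051, adjusted p = 7.0e-05), and at 799 and 814 against 683 and 672 in TDM culture, where it was not called (-0.25 ± 0.073, adjusted p = 0.21). Slc27a6 fell from 70.1, 64.0, 55.7 and 89.1 to 43.1, 10.7, 34.4 and 40.2 (-1.24 ± 0.38, adjusted p = 0.022). With a mean of 32.1 with sgNlrc5, it reached the limit only through the sgScramble tumours in which it was high. Its value was -0.80 without sgNlrc5 replicate 2 (adjusted p = 0.021), and it was not called without sgScramble replicate 4 (-1.12, adjusted p = 0.057).

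In tumours the counts from these lists stand beside 19.7% higher and 19.7% lower over all genes tested. Of 20 HIF pathway and glycolysis genes tested 2 were lower, Hif1a at log2 -0.34 ± 0.090 (limma adjusted p = 0.012) and Hk2 at -0.34 ± 0.10 (adjusted p = 0.020). Of 8 sterol genes 2 were lower, Idi1 at -0.98 and Hmgcs1 at -0.72. The amino acid response list had 9 of 18 lower and 4 higher. Asns, asparagine synthetase, fell from a mean of 1213 to 516 (-1.22 ± 0.12, adjusted p = 3.2e-05) and Phgdh, which starts serine synthesis, from 2281 to 1198 (-0.93 ± 0.13, adjusted p = 2.4e-04), while the stress factor gene Atf3 rose from 108 to 287 (1.51 ± 0.27, adjusted p = 0.0012). The NRF2 list had 3 of 12 higher, among them Srxn1 (0.47) and Keap1 (0.37), and 1 lower, G6pdx (-0.42). Of 11 nucleoside salvage genes tested, Entpd1, an ectoenzyme of immune and endothelial cells, was higher (1.59) and Adk (-0.50) and Uck2 (-0.39) were lower.

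The difference between the guide's effect in tumours and in TDMa culture was tested in the same way over 133 members above the limit in both. It was called in 76 (57.1%, against 41.1% of all genes), with 58 higher in tumours (background 17%) and 18 lower (background 24.1%). Without library weights, where each library counts the same, 45 were called, 32 higher and 13 lower. With voom on recovered reads 43 were called. Of the 11782 genes tested, 4844 were called with weights, 2799 without weights and 2723 with voom. With weights a difference is not the plain subtraction of the 2 tables' values. By calls, 10 members were higher in both settings, 3 lower in both, 49 higher in tumours only and 4 lower in tumours only. In culture only 27 were called, 13 of them higher and 14 lower, and 30 were called in neither setting. This split was not counted over all genes.

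Of these members 10 were called in opposite directions. They were picked for those calls, so their differences are given as descriptions, with no test. Slc22a15, an organic zwitterion carrier, was lower in culture, at 144 and 165 normalised counts against 114 and 96.9 (log2 -0.55 ± 0.17, adjusted p = 0.015), and higher in tumours, at 100, 85.9, 78.5 and 85.6 against 237, 216, 189 and 244 (1.33 ± 0.14, adjusted p = 5.0e-05). The culture call was lost without sgScramble replicate 2 (-0.46, adjusted p = 0.15) or sgNlrc5 replicate 2 (-0.44, adjusted p = 0.098). The fitted difference was 1.96 ± 0.19. Slc31a2, lower in culture as given above, was at 188, 166, 197 and 209 against 429, 505, 295 and 357 in tumours (1.03 ± 0.16, adjusted p = 5.1e-04), a difference of 1.93 ± 0.17. For Slc30a1 the difference was 1.52 ± 0.19, for Slc29a3 0.78 ± 0.12 and for Slc29a1 0.45 ± 0.12. Slc35f6, which falls outside the naming rule and was picked after its values were seen, differed by 0.96 ± 0.14, and Slc66a2 by 0.99 ± 0.17. In culture Slc66a2 was at 162 and 155 against 125 and 98.8 (-0.51 ± 0.17, adjusted p = 0.023), a call lost without sgScramble replicate 1 (adjusted p = 0.15) or 2 (adjusted p = 0.089) or sgNlrc5 replicate 2 (-0.34, adjusted p = 0.18).

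The 3 members that went the other way were Slc39a10 (difference -1.57 ± 0.15), Slc39a14 (-1.17 ± 0.093) and Slc27a6 (-1.63 ± 0.33, and -1.92 without weights). Slc27a6 was a member in tumours only through the sgScramble libraries in which it was high. Among other members with called differences, Slc43a2 differed by 1.38 ± 0.17 (adjusted p = 4.8e-06), Slc48a1 by 1.08 ± 0.089 (adjusted p = 8.1e-08), Slc35f1 by -1.55 ± 0.20 (adjusted p = 1.2e-05), Slc1a5 by -0.64 ± 0.11 (adjusted p = 1.8e-04) and Slc16a1 by -0.53 ± 0.099 (adjusted p = 4.1e-04). For Slc7a5 the difference was -0.30 ± 0.10 (adjusted p = 0.025), but -0.12 without tumour sgNlrc5 replicate 3 (adjusted p = 0.39) and -0.13 without replicate 4 (adjusted p = 0.37), and it was also not called without tumour sgScramble replicate 2 or any 1 culture library (-0.24 to -0.32). For Slc2a1 it was -0.37 ± 0.14 (adjusted p = 0.050), and without 1 library it lay between -0.28 and -0.61, the last without tumour sgNlrc5 replicate 4 (adjusted p = 0.012). Its call ended without any 1 of the 4 culture libraries, tumour sgScramble replicate 2, 3 or 4, or tumour sgNlrc5 replicate 2. Tumours also differ from culture in their cell types, as the marker sums show, and the part of this in these differences was not tested.

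**Figure D5:**
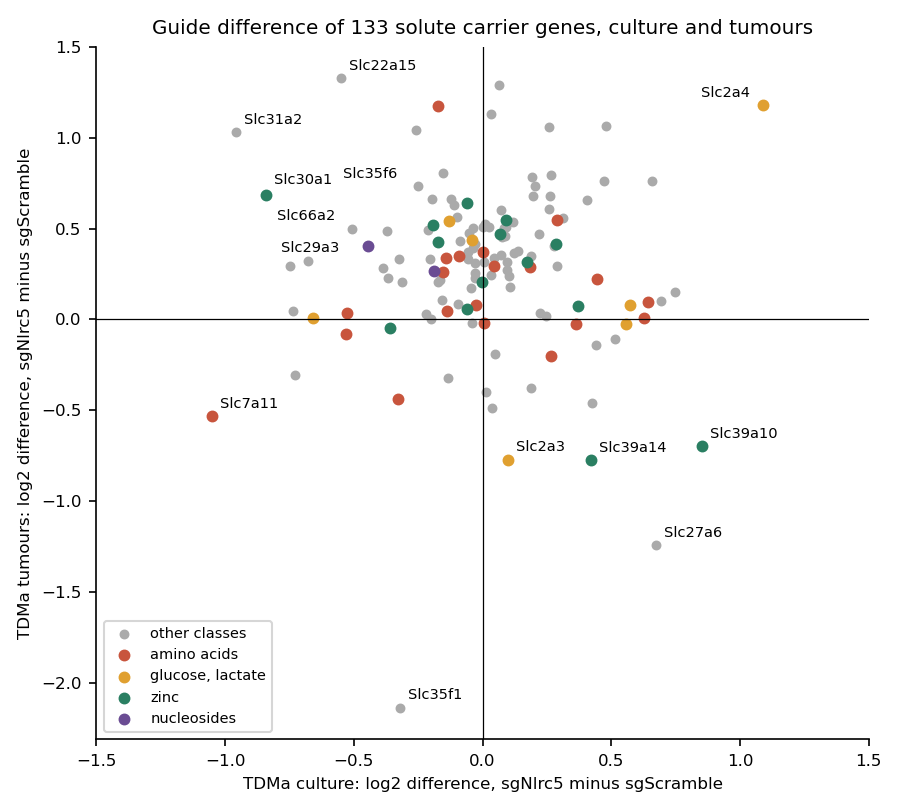
Log2 difference between guides (sgNlrc5 minus sgScramble) in TDMa culture (x axis) and TDMa tumours (y axis) for the 133 members above the limit in both, coloured by transported class. Slc22a15, Slc31a2, Slc30a1 and Slc29a3 lie at the upper left, lower in culture and higher in tumours, Slc39a10, Slc39a14 and Slc27a6 at the lower right, and Slc2a4 is higher in both.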

How the data were processed

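Total RNA from cells and tumours went into a strand-keeping library kit, per the labels' protocols. Tools listed by the submitters' processing notes, with no roles, are STAR 2.7.10a, DESeq2 1.36.0 and FastQC 0.12.0, and the build is GRCm39. The authors deposited 1 table per setting with log2 values that, read from the numbers, are log2(count divided by a size factor + 1), each table scaled on its own. These values gave whole reads within 0.1 for 100% of entries.

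Genes with a mean normalised count of 10 or more were tested with limma 3.58.1 (R 4.3.3) on the log2 scale with a pseudocount of 1 and an intensity trend, and p-values were Benjamini-Hochberg adjusted over all of them at 0.05. Fold changes on this scale understate low genes. Differences between effects came from 1 fit over 2 tables with array weights. The unweighted fit was added after the data were seen. Other settings are given in the closing section. The code was tested on simulated data.

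Members, classes and gene lists were chosen with earlier results of these data known, and transported classes were assigned by hand. Named per table were the called members of the amino acid, glucose and lactate, zinc and nucleoside classes up to 10 each by size (without a call, the 2 smallest p), up to 12 called members of other classes by size whose groups did not overlap, and a fixed set (Slc7a11, Slc3a2, Slc7a5, Slc1a5, Slc38a2, Slc2a1, Slc2a3, Slc16a1, Slc16a3, Slc30a1, Slc39a14, Slc29a1, Slc43a3, Slc15a3, Slc11a1), with up to 3 called genes of each pathway list. Slc35f6 falls outside this rule. Some genes are not reported here.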

Additional observations from a re-analysis of the deposited data

Results flagged for a closer look

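In 10 of 124 groups of 4 tumour libraries checked, 1 library of a named carrier stood apart from the other 3 beyond Dixon's 95% limit, which chance alone gives in about 1 group in 20. High with sgScramble were Slc16a3 in replicate 4 (170 normalised counts, next 79.5) and Slc2a6 in replicate 1 (287, next 210). Low with sgScramble were, in replicate 1, Slc27a1 (948, next 1334), Slc39a14 (2526, next 2874) and Slc6a8 (1031, next 1348), and, in replicate 4, Slc38a1 (6119, next 7424). With sgNlrc5, Slc30a7 (1500.3, next 1218) and Slc39a13 (559.8, next 442) were high in replicate 2, and Slc2a1 (3955, next 7010) and Slc39a14 (1366, next 1721) low in replicate 1. Among sgScramble tumours, replicate 4 also had the highest marker sums of macrophages (4531, next 3831), erythroid cells (3364, next 1035) and neutrophils (64.4, next 36.8). Its sums for T cells, dendritic cells, melanocytes, fibroblasts and endothelium were not the highest. The part of any of these cells in the high Slc16a3 was not tested.

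The guide's effect differed in direction between tumours and culture of TDMa cells in 10 carriers, picked because the 2 calls had opposite signs, so the fitted difference describes them and is no separate test. It was higher in tumours by log2 1.96 for Slc22a15, 1.93 for Slc31a2, 1.52 for Slc30a1, 0.99 for Slc66a2, 0.96 for Slc35f6, 0.78 for Slc29a3 and 0.45 for Slc29a1. It was lower by -1.63 for Slc27a6, -1.57 for Slc39a10 and -1.17 for Slc39a14. Slc27a6 reached the limit in tumours only through the sgScramble libraries.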

How the results depend on the processing

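With 2 culture libraries per guide, smaller calls depend on how the spread is pooled, and deposited normalised values limit what can be said of low genes. In TDM culture the 1 called member became 0 without the intensity trend and 0 with quantile normalisation (limma), and voom called 1. Over all genes tested the 62 calls became 2, 42 and 59 in these settings. At an unadjusted limma p under 0.05 there were 12 members, as reported, and 9.04% of all genes tested. When 1 library was left out, 0 to 3 members were called. In TDMa culture 51 became 25 without the trend, while 4156 calls over all genes tested became 1581. The tumour count of 85 stayed within 1.5 times under each setting run, at 70 to 93 without 1 library. Over all genes tested, the 5268 tumour calls became 4327 to 5366 without 1 library. Differences between lines went from 35 to 23 without the trend, and from 2612 to 1186 over all genes tested. Tumour minus culture differences went from 76 to 43 with voom and 45 without array weights, and 54 to 89 without 1 library. Over all genes they went from 4844 to 2723 with voom and 2799 without array weights. Whether equal replicate numbers pair the samples is not known. Deviations of same-numbered libraries correlated at -0.024 in TDM culture, -0.015 in TDMa culture and -0.207 to 0.109 in tumours. These values show no strong shared replicate effect but cannot settle whether the libraries were paired. With replicate number added to the fit as a block the counts were 2, 54, 75, 32 and 78 in the order above. Called lower with the block (limma) were Slc39a10 in TDM culture (-0.29, adjusted p = 0.046) and Slc7a11 in tumours (-0.53, adjusted p = 0.039). The tumour calls of Slc29a1, Slc38a7 and Slc38a9 ended with it (adjusted p = 0.070, 0.064 and 0.059). Of the named calls none changed sign, and 19 of 37 in TDMa culture and 35 of 40 in tumours passed in all settings.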

Other observations

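The genes in the next 2 paragraphs fall outside the naming rule and were chosen after their values were seen. Slc35 carriers bring nucleotide sugars into the Golgi and endoplasmic reticulum for glycosylation. In TDMa culture 1 of 21 members was higher and 5 lower (limma; background 17.3% higher and 16.9% lower), and in tumours 11 were higher and 2 lower (background 19.7% higher and 19.7% lower). In tumours the UDP-galactose carrier gene Slc35a2 went from a mean of 531 to 750.3 normalised counts (log2 0.49 ± 0.11, adjusted p = 0.0054), the sulphate donor carrier gene Slc35b2 from 2015 to 2609.8 (0.37 ± 0.077, adjusted p = 0.0028), and Slc35d1 from 287.5 to 407 (0.51 ± 0.12, adjusted p = 0.0054). Slc35a3, which carries UDP-N-acetylglucosamine, was higher in both settings, by 0.28 ± 0.060 in culture (adjusted p = 0.0014) and 0.41 ± 0.092 in tumours (adjusted p = 0.0048). Slc35b4 was lower in culture (-0.39 ± 0.064, adjusted p = 1.1e-04) and not called in tumours (0.29 ± 0.13, adjusted p = 0.095).

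Among ion, metal and choline carriers, the endosomal exchanger gene Slc9a9 (0.80 ± 0.18, adjusted p = 0.0039), the phosphate importer gene Slc20a2 (0.60 ± 0.090, adjusted p = 4.4e-04), the iron importer gene Slc11a2 (0.63 ± 0.13, adjusted p = 0.0026) and the choline carrier gene Slc44a1 (0.54 ± 0.097, adjusted p = 0.0013) were higher in tumours and not called in culture. The sodium-bicarbonate carrier gene Slc4a7 was lower in tumours, from 806 to 575 (-0.49 ± 0.093, adjusted p = 0.0018). The myo-inositol importer gene Slc5a3 was higher in culture (0.47 ± 0.066, adjusted p = 1.8e-05) and in tumours (0.76 ± 0.15, adjusted p = 0.0019), as was the ascorbate carrier gene Slc23a2 (0.26 ± 0.064, adjusted p = 0.0035, and 0.68 ± 0.086, adjusted p = 1.5e-04).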
